A study of Mus musculus with 35 samples.

Results

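The 10 long non-coding RNAs Malat1, Neat1, Meg3, Rian, Kcnq1ot1, Norad, Miat, Snhg1, Snhg11 and Gas5, all transcribed in neurons, were followed in lumbar motoneurons of SOD1G93A and wild type (WT) mice. They were found by gene symbol, as every probe set (a group of short oligonucleotides on the array that together read 1 transcript) that names exactly 1 gene and that gene is on the list. The list of genes was chosen with earlier results of these data known, although no measured value entered this rule. It found all 10 genes, of 18194 named in this way on the array, through 46 probe sets of the 34958 on the array that name 1 gene, and of 45101 in all: 11 for Meg3, 7 for Malat1, 6 for Kcnq1ot1, 5 for Snhg1, 4 each for Gas5 and Rian, 3 for Norad and 2 each for Miat, Neat1 and Snhg11. Another probe set that names Snord47 together with Gas5 was left out. A filter on low intensity and low spread kept 44 of the 46, and the other two, 1442881_at of Neat1 and 1459443_at of Kcnq1ot1, were bright enough but varied too little over the arrays.

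Motoneurons were cut by laser from the lumbar spinal cord of 35 mice, 300 cells per mouse, and each mouse gave 1 array. The transgenic mice were hemizygous females of the strain B6.Cg-Tg(SOD1-G93A)1Gur/J, which carries many copies of mutant human SOD1 and develops motoneuron disease. The controls were WT littermates. At week 11 there were 6 WT and 8 SOD1G93A mice, both without treatment. At week 15 there were 7 WT mice, 7 SOD1G93A mice given vehicle and 7 SOD1G93A mice given G-CSF (granulocyte colony-stimulating factor), both from week 11 on through an implanted pump. Treated mice of both kinds thus carried a pump, while no source used here states that WT mice did. The transgene is active in all cells, not in motoneurons alone.

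Long non-coding RNAs act as RNA and make no protein. Malat1 gathers in nuclear speckles, the stores of splicing factors, and Neat1, its neighbour on the chromosome, is the scaffold around which paraspeckles form. Meg3 and Rian are expressed from the maternal copy of the imprinted Dlk1-Dio3 domain, while Kcnq1ot1 is made from the paternal copy inside Kcnq1, on the opposite strand, and silences its neighbours. Norad holds Pumilio proteins in the cytoplasm, and Miat binds splicing factors in neuronal nuclei. Snhg1, Snhg11 and Gas5 carry small nucleolar RNAs in their introns, and the spliced Gas5 RNA, which begins with a run of pyrimidines, is held low in growing cells by translation-coupled decay.

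Start-site sequence from RefSeq (GRCm38.p6) was found for 8 of the 10 genes, in 10 windows of 150 bases, each with 100 bases before the start and 50 from it. The windows of Gas5, Kcnq1ot1, Malat1, Meg3 and Snhg11 are shown because these genes had a probe set that was higher in vehicle-treated mice (see values further on), and that of Snhg1, a host gene of the same kind as Gas5, because it did not. They are written 5′ to 3′ on the strand of the gene. Capitals mark TGACGT, the core of the cAMP response element, or its other strand ACGTCA, and a run of pyrimidines that begins with C at the start base.
Gas5, start at 161035166: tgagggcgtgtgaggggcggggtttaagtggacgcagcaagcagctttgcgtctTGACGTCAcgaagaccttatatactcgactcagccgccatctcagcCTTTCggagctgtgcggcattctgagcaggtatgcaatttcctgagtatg
Kcnq1ot1: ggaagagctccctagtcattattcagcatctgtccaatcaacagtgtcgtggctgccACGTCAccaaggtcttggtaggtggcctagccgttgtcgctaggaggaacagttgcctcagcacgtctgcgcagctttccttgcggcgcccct
Malat1: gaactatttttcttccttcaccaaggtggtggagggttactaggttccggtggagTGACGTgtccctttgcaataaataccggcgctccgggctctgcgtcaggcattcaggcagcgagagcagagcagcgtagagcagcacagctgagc
Meg3, start at 109540996: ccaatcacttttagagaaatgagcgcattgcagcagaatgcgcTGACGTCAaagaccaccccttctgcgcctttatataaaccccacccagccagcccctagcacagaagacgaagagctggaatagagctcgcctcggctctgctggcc
Snhg11: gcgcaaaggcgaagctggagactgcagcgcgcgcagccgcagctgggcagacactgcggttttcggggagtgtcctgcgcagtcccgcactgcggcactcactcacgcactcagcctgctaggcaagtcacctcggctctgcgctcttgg
Snhg1: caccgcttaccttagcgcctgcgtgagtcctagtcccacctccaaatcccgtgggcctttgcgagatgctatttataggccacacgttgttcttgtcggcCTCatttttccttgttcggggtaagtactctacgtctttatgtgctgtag
The Gas5 window lies at chr1:161035066-161035215 on the plus strand, that of Kcnq1ot1 at chr7:143296498-143296647 on the minus strand and that of Malat1 at chr19:5802623-5802772 on the minus strand. The Meg3 window lies at chr12:109540896-109541045, that of Snhg11 at chr2:158375613-158375762 and that of Snhg1 at chr19:8723387-8723536, all on the plus strand. TGACGT or ACGTCA stood 46 bases before the start in Gas5, 43 in Kcnq1ot1, 45 in Malat1 and 57 in Meg3, and in Gas5 and Meg3 both forms overlapped. The windows shown were picked by calls in these same data, so whether the letters go with a call was not tested. The letters were not in the windows of Snhg11, Snhg1, Miat and Rian, nor at the other listed start of Gas5 and of Meg3. Among all 32851 windows of this length, 1704 held them (5.19%). The pyrimidine run spanned 5 bases in Gas5, 3 in Snhg1 and 6 in Miat, and a run of at least 5 was in 823 of all windows (2.51%). In the same assembly Neat1 spans chr19:5824708-5845480, Norad chr2:156388063-156392979, Miat chr5:112213228-112228948 and Rian chr12:109603945-109661716. These windows were searched with the values known, and a match is a description of the sequence alone.

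Deposited values were log2 intensities after GCRMA, so a difference of 1 is a doubling of intensity. Probe sets bind with different strength and the same gene was read at very different intensities, 4.30 to 12.05 over the 7 Malat1 probe sets and 3.48 to 11.30 over the 11 of Meg3, so levels were compared between groups of mice and never between genes. The probe set with the highest mean of each gene was above the median of its array in all 35 mice. A probe set was called between groups when limma gave p under 0.05, an adjusted p under 0.1 over all 31352 filtered probe sets, and at least a 1.5-fold difference.

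The nuclear RNAs of the speckle and paraspeckle came first. Malat1 probe set 1418189_s_at measured 11.58 ± 0.52 (SD, n = 6) in WT and 11.72 ± 0.40 (n = 8) in SOD1G93A mice of week 11. At week 15 it was 12.12 ± 0.31 in WT, 12.40 ± 0.58 with vehicle and 12.42 ± 0.42 with G-CSF (n = 7 each). Its order from low to high was thus WT and SOD1G93A of week 11, WT of week 15, vehicle and G-CSF, and all neighbours in that order overlapped. Neat1 probe set 1428083_at measured 5.54 ± 0.70 and 5.33 ± 0.60 in WT and SOD1G93A mice of week 11, and 5.54 ± 0.57, 5.71 ± 0.99 and 5.91 ± 0.59 in WT, vehicle and G-CSF mice of week 15. All 5 groups of mice overlapped in Neat1. Miat probe set 1455325_at, likewise a nuclear RNA, measured 9.88 ± 0.50 and 9.44 ± 0.44 at week 11, and 9.99 ± 0.48, 10.11 ± 0.58 and 10.13 ± 0.53 in the same order at week 15. Neither Neat1 nor Miat had a probe set called in any comparison.

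The imprinted RNAs came next. Meg3 probe set 1439380_x_at was lowest in SOD1G93A mice of week 11 (10.59 ± 0.48), then came WT of week 11 (10.90 ± 0.28), WT of week 15 (11.36 ± 0.18), G-CSF (11.75 ± 0.46) and vehicle (11.95 ± 0.26). Rian probe set 1452899_at ran from 10.02 ± 0.78 in WT of week 11 through 10.28 ± 0.72 with vehicle, 10.52 ± 0.22 with G-CSF and 10.61 ± 0.66 in SOD1G93A of week 11 to 10.96 ± 0.25 in WT of week 15. These probe sets of the 2 RNAs from 1 domain differed in their order of groups. The dimmer Rian probe set 1440001_at was, like the Meg3 one, lowest in SOD1G93A of week 11 (4.71), then in WT of week 11 (5.34). Its week 15 means were nearly level, at 6.88 ± 0.62 in WT, 6.90 ± 1.37 with G-CSF and 6.91 ± 1.76 with vehicle. Kcnq1ot1 probe set 1442029_at measured 5.32 ± 0.82 in SOD1G93A and 6.04 ± 0.29 in WT mice of week 11, 6.36 ± 0.51 in WT of week 15, 7.39 ± 1.18 with G-CSF and 7.52 ± 0.56 with vehicle.

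Norad and the snoRNA host genes made up the rest. Norad probe set 1428286_at stayed between 11.12 ± 0.27 with vehicle and 11.63 ± 0.13 in SOD1G93A of week 11, with 11.22 ± 0.21 with G-CSF, 11.39 ± 0.12 in WT of week 15 and 11.44 ± 0.36 in WT of week 11 between them. Gas5 probe set 1419291_x_at was lowest in WT of week 15 (7.86 ± 0.28), followed by G-CSF (8.22 ± 0.30), WT of week 11 (8.46 ± 0.35), vehicle (8.54 ± 0.35) and SOD1G93A of week 11 (8.55 ± 0.29). Snhg1 probe set 1439399_a_at was likewise lowest in WT of week 15 (6.83 ± 0.50). The other 4 Snhg1 means lay close together, at 7.63 ± 0.97 with G-CSF, 7.71 ± 0.92 in vehicle-treated mice, and 7.85 ± 0.56 and 7.88 ± 0.59 in the WT and SOD1G93A mice of week 11. Snhg11 probe set 1434292_at also had its lowest mean in WT of week 15, at 8.60 ± 0.75, against 8.84 ± 1.03 and 9.04 ± 0.45 in WT and SOD1G93A of week 11, 9.33 ± 0.76 with G-CSF and 9.67 ± 0.58 with vehicle. The brightest probe sets of all 3 host genes were thus lowest in the same group, while dimmer ones had other orders, with Snhg11 1437311_at lowest in WT of week 11 and Gas5 1436222_at and 1424843_a_at and Snhg1 1433674_a_at and 1437658_a_at lowest with G-CSF.

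**Figure D1:**
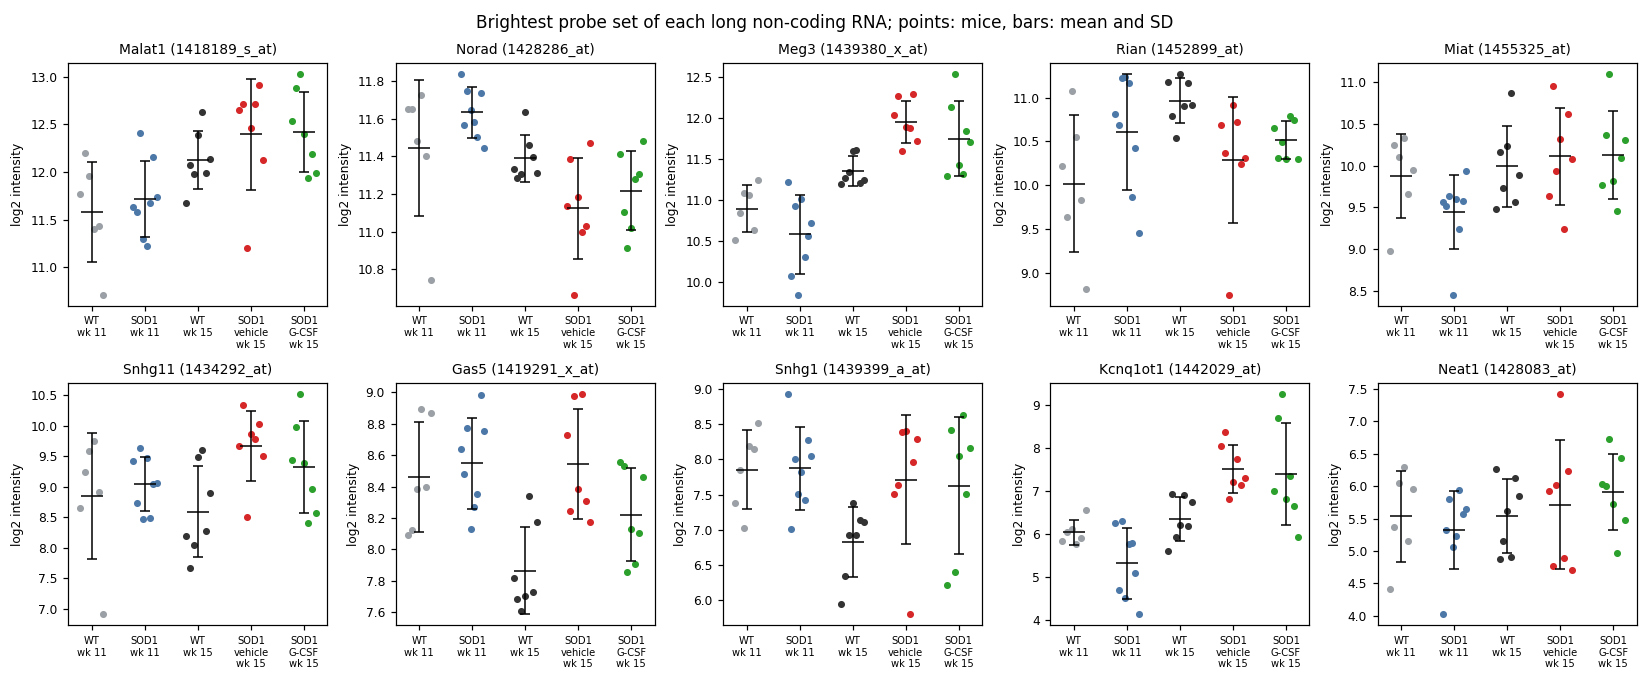
Log2 intensity (vertical axis, GCRMA) of the brightest probe set of each of the 10 RNAs in the 5 groups of mice (horizontal axis); each point is 1 mouse and bars give mean and SD. Meg3 and Kcnq1ot1 lie highest in the vehicle and G-CSF groups of week 15, whereas Gas5, Snhg1 and Snhg11 lie lowest in WT of week 15.

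Some facts of the whole series touch these values. The 12 motoneuron markers averaged 8.21 to 8.67 over the 5 groups and all 12 were above the 20th centile of intensities (2.40) in every mouse, although Chat itself averaged 3.17, near the array medians of 3.19 to 3.47. Microglial markers averaged 3.71 in WT of week 15 (3.48 to 3.86 over mice) and 4.60 with vehicle (3.90 to 5.01). Over all mice they ran from Aif1 (2.21) and Itgam (2.29) to Ctss (7.55) and Csf1r (7.86). Of the 12, 8 were above the 20th centile in every mouse. Astrocyte markers averaged 7.75 (7.25 to 8.10) and 8.13 (7.73 to 8.37) in the same pair of groups, with all 8 above that centile, and oligodendrocyte markers 7.92 (7.72 to 8.13) and 7.53 (7.12 to 7.88), with 7 of 8 above it. The control probe set for the middle of 18S ribosomal RNA rose from 10.12 ± 0.68 in WT of week 11 to 13.13 ± 0.26 in WT of week 15, so that the week, the cohort and this measure cannot be told apart. On principal components 3 arrays had stood apart in an earlier look at these data: WT mouse 6 of week 11 and vehicle mice 3 and 5.

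The comparison with the most calls among the long non-coding RNAs was that of WT mice of week 15 with WT mice of week 11, in which no mouse carries the mutation. Of the 44 probe sets 6 were called higher and 3 lower, 20.5%, where 5.56% of all filtered probe sets were called (3.29% higher and 2.26% lower). The higher ones read Malat1 (a pair of them), Meg3, Rian, Kcnq1ot1 and Norad, and the lower ones Gas5 (a pair) and Snhg1. The members' median difference was 0.32 on the log2 scale, 33 lay above 0 and 11 below, and 17 (38.6%) had an unadjusted p under 0.05, beside 17.4% of all filtered probe sets. All 7 Malat1 and all 11 Meg3 probe sets were among the 33, and probe sets of 1 gene are not independent. In bulk cells such as these, fewer cells that make an RNA and less RNA per cell cannot be told apart.

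Among the RNAs that were higher in the older WT mice, Malat1 probe set 1418188_a_at ranged from 7.31 to 9.87 with a median of 8.21 at week 11, and from 10.12 to 11.52 with a median of 10.38 at week 15. The 2 groups did not overlap, and the difference was 2.13 on the log2 scale (SE 0.41, 4.39-fold, adjusted p = 0.00183). How many of all filtered probe sets lacked overlap between these groups was not counted, so its absence is given as a description. Malat1 probe set 1452378_at ranged from 4.81 to 5.92 (median 5.52) and from 6.45 to 8.40 (median 7.16), again without overlap, with a difference of 1.84 (SE 0.53, adjusted p = 0.0382). Both read the same nuclear RNA, and all 7 Malat1 differences lay above 0, from 0.14 to 2.13. Meg3 probe set 1428764_at ranged from 6.64 to 9.43 (median 8.48) and from 9.14 to 11.80 (median 10.02), a difference of 1.99 (SE 0.52, adjusted p = 0.0224), with 6 of the 7 older mice above all younger ones. All 11 Meg3 differences lay above 0, from 0.06 to 1.99.

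Rian, the other RNA of the Meg3 domain, ranged from 8.81 to 11.07 (median 10.02) at week 11 and from 10.54 to 11.26 (median 10.92) at week 15 at probe set 1452899_at. It was 0.95 higher (SE 0.31, adjusted p = 0.0790), with 3 of the 7 older mice above all younger ones, and all 4 Rian probe sets lay above 0. Rian 1440001_at differed by 1.54 and had all 7 older mice above all younger ones, but was not called. The call of 1452899_at was lost in 9 of the 35 fits that each left out 1 mouse (WT mice 2, 5 and 6 of week 11, and all WT mice of week 15 but mouse 3), with differences of 0.70 to 0.97 there, and under Tukey's comparison. Kcnq1ot1 probe set 1458161_at ranged from 2.76 to 4.09 (median 3.27) and from 4.02 to 5.49 (median 4.78), a difference of 1.45 (SE 0.39, adjusted p = 0.0270), and 6 of the 7 older mice lay above all younger ones. All 5 filtered Kcnq1ot1 probe sets lay above 0, from 0.26 to 1.45. Norad probe set 1432646_a_at ranged from 1.91 to 2.43 (median 2.14), where 1 of the 6 mice was above the 20th centile of intensities (2.40), and from 4.48 to 6.51 (median 5.12), above it in all 7. With values under that centile set to it, the older mice were at least 7.32-fold higher (adjusted p of the fit on the values as deposited = 0.00288), whereas the much brighter Norad probe set 1428286_at differed by -0.05 (95% interval -0.34 to 0.23). The probe sets named for Norad thus gave unlike answers, and within groups their 3 pairwise correlations were all below 0.

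The host genes went the other way. Gas5 probe set 1449410_a_at ranged from 7.20 to 8.27 (median 7.70) at week 11 and from 5.82 to 7.01 (median 6.27) at week 15, with no overlap, and fell by 1.35 on the log2 scale (SE 0.28, adjusted p = 0.00321). Gas5 probe set 1419291_x_at ranged from 8.09 to 8.90 (median 8.39) and from 7.61 to 8.34 (median 7.73) and fell by 0.60 (SE 0.18, adjusted p = 0.0509), with 5 of the 7 older mice below all younger ones. The second call was lost in 6 fits without 1 mouse (WT mice 4 and 6 of week 11 and WT mice 2, 3, 4 and 6 of week 15), where the difference was -0.57 to -0.51, without the 3 arrays that stood apart (-0.51), with another quantile normalization (-0.54, adjusted p = 0.114) and with array weights (-0.48, under 1.5-fold). All 4 Gas5 probe sets lay below 0. Snhg1 probe set 1433674_a_at ranged from 5.14 to 6.32 (median 6.25) and from 2.66 to 4.82 (median 4.12) with no overlap, and fell by 1.95 (SE 0.42, adjusted p = 0.00531). Snhg11 did not follow: its pair of probe sets differed by -0.25 and 0.16 and neither was called.

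The 18S control did not overlap between the 2 WT groups, at 9.23 to 10.86 in week 11 and 12.70 to 13.50 in week 15. A fit with its level as a covariate thus cannot tell a week difference from an 18S difference. In that fit 0 of the 44 probe sets and 36 of all 31352 (0.115%) were called. The fitted differences of Malat1 1418188_a_at, Malat1 1452378_at, Meg3 1428764_at and Snhg1 1433674_a_at became -0.25, -1.26, -0.77 and 0.18 (limma adjusted p = 0.981, 0.889, 0.944 and 0.988). The mean over interneuron markers, 4 of 5 above the 20th centile in every mouse, was 7.47 (6.61 to 7.99) at week 11 and 6.48 (6.30 to 6.62) at week 15, and that over oligodendrocyte markers was 7.44 (6.82 to 7.84) and 7.92 (7.72 to 8.13). The part of these measures in the week differences cannot be told apart from that of age. When the median of all probe sets of a gene was tested instead of each probe set, Kcnq1ot1 was called (1.20, adjusted p = 0.0981). Its middle filtered probe set was on average 1458161_at at week 11 (3.28) and 1457781_at at week 15 (4.65), so unlike probe sets were compared. Norad was also called, but the middle one of its 3 probe sets was on average 1454312_at at week 11 (3.27) and 1432646_a_at at week 15 (5.28), so that its median set unlike probe sets against each other. The other 8 genes were not called.

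**Figure D2:**
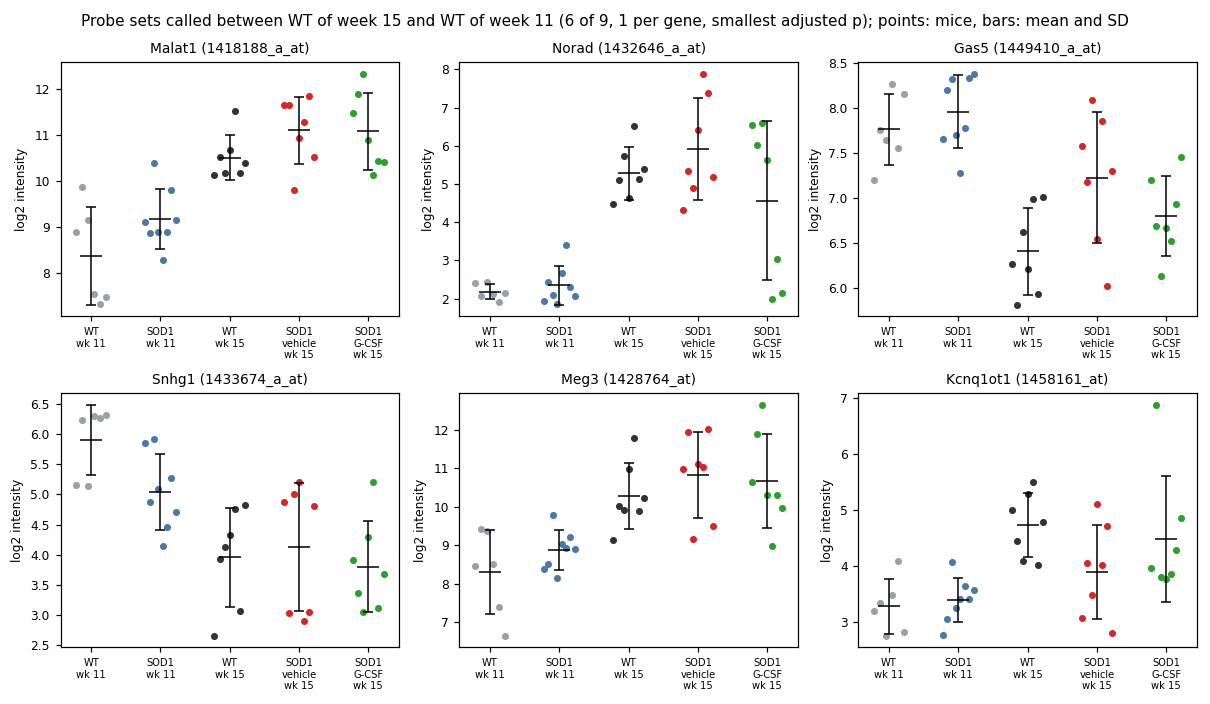
Log2 intensity of 6 of the 9 probe sets called between WT mice of week 15 and WT mice of week 11, 1 per gene, in all 5 groups; points are mice and bars give mean and SD. Malat1 1418188_a_at, Norad 1432646_a_at, Snhg1 1433674_a_at and Gas5 1449410_a_at show no overlap between the 2 WT groups. How many of all filtered probe sets lacked overlap was not counted.

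At week 11, before symptoms, the question was whether the mutation alone had shifted these RNAs. None of the 44 probe sets was called by limma between SOD1G93A and WT mice, where 1.32% of all filtered probe sets were. Tukey's comparison, named in the study's methods, called 0 of the 44, beside 694 of all 31352 filtered probe sets. The median difference was 0.01, and 22 probe sets lay above 0 and 22 below. At an unadjusted p under 0.05 there were 4 (9.09%, beside 11.0% of all filtered probe sets). Among them was Malat1 1438403_s_at, which ranged from 10.65 to 11.68 in WT (median 11.19) and from 9.27 to 11.46 in SOD1G93A mice (median 10.19). It gave -0.88 (95% interval -1.52 to -0.24, adjusted p = 0.231), with 5 of the 8 SOD1G93A mice below all WT mice. The other three read Snhg1: 1433674_a_at gave -0.87 (adjusted p = 0.429), 1433675_at 0.69 (adjusted p = 0.329) and 1437658_a_at 0.66 (adjusted p = 0.370). The Snhg1 probe sets therefore pointed in both directions. With the 18S control as a covariate, 2 of the 44 were called, 1 higher and 1 lower, beside 362 of all 31352 (1.15%).

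At week 15, when the disease is manifest, vehicle-treated SOD1G93A mice had higher intensities than WT mice at 6 probe sets of 5 RNAs, Gas5 (a pair of probe sets), Malat1, Meg3, Kcnq1ot1 and Snhg11, and lower at 0. This is 13.6% of the 44, beside 5.91% of all filtered probe sets called, 1.72% higher and 4.2% lower. The median difference of the 44 was 0.25 on the log2 scale and 35 lay above 0, while over all filtered probe sets the median was 0.02 and 52.7% lay above 0. Malat1 (7 of 7 above 0) and Meg3 (10 of 11) held many of the 35. Probe sets of 1 gene are not independent, so the 35 do not count separate RNAs. At an unadjusted p under 0.05 there were 11 (25.0%), beside 19.5% of all filtered probe sets.

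Gas5 gave the smallest adjusted p. Its probe set 1419291_x_at ranged from 7.61 to 8.34 (median 7.73) in WT and from 8.18 to 8.99 (median 8.38) with vehicle. The difference was 0.68 (SE 0.17, 1.60-fold, adjusted p = 0.0212), and 4 of the 7 vehicle mice lay above all WT mice. It was called in all 35 fits that left out 1 mouse, but not without the 3 arrays that stood apart together, where the difference of 0.50 fell short of 1.5-fold (adjusted p = 0.0974). Gas5 probe set 1449410_a_at ranged from 5.82 to 7.01 (median 6.27) and from 6.03 to 8.10 (median 7.30), a difference of 0.82 (SE 0.27, adjusted p = 0.0742), and 5 vehicle mice lay above all WT mice. Without the 3 arrays it gave 0.52 (adjusted p = 0.308), and it was lost in 7 fits without 1 mouse (vehicle mice 1, 3 and 5 and WT mice 1, 2, 4 and 6), at 0.67 to 0.79. It was also lost with array weights (0.70, adjusted p = 0.170) and when only the groups compared were fitted (0.82, adjusted p = 0.200). Both probe sets are those that fell with week in WT mice, and the vehicle means of 8.54 and 7.23 stand beside WT means of 8.46 and 7.77 at week 11. The dimmer Gas5 probe sets 1436222_at and 1424843_a_at were not called, and the 4 ranged from -0.13 to 0.82.

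For Malat1, probe set 1438403_s_at ranged from 10.32 to 12.53 (median 11.29) in WT and from 12.04 to 12.96 (median 12.35) with vehicle. The groups overlapped only through the highest WT mouse, since 2 vehicle mice lay above all WT mice and the remaining WT values were below the lowest vehicle value. The difference was 1.10 (SE 0.31, 2.15-fold, adjusted p = 0.0391), and it was called in all 35 fits without 1 mouse and without the 3 arrays (1.18, adjusted p = 0.0547), but not with array weights (1.02, adjusted p = 0.121). The other 6 Malat1 probe sets differed by 0.09 to 0.90 with none called, among them 1418189_s_at, the brightest, at 0.27 (95% interval -0.21 to 0.76). All 7 thus lay above 0 but 1 passed the test.

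Meg3 and Kcnq1ot1 were the imprinted RNAs that were higher. Meg3 probe set 1439380_x_at ranged from 11.20 to 11.61 (median 11.27) in WT and from 11.60 to 12.29 (median 11.89) with vehicle, with 6 of 7 vehicle mice above all WT mice, and differed by 0.60 (SE 0.19, 1.51-fold, adjusted p = 0.0754). The call was lost in 8 fits without 1 mouse (vehicle mice 1, 2 and 6 and WT mice 1, 2, 3, 6 and 7), at 0.54 to 0.60, with another quantile normalization (0.58, adjusted p = 0.104) and with array weights (0.60, adjusted p = 0.123). Of the other 10 Meg3 probe sets 9 lay above 0 and none was called. Kcnq1ot1 probe set 1442029_at ranged from 5.61 to 6.92 (median 6.21) and from 6.81 to 8.37 (median 7.31), with 6 of 7 vehicle mice above all WT mice, and differed by 1.16 (SE 0.39, 2.24-fold, adjusted p = 0.0830). It was lost in 7 fits without 1 mouse (vehicle mice 1, 2 and 5 and WT mice 1, 3, 4 and 6), at 1.02 to 1.14, and under Tukey's comparison. The remaining 4 filtered Kcnq1ot1 probe sets went both ways, from -0.84 to 0.95, and 1458161_at, which had been higher in WT at week 15, was the one at -0.84. Whether the labelled target told the strand of Kcnq1ot1 from that of Kcnq1 is not given in the sources used here.

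Snhg11, a host gene found mainly in neurons, ranged from 7.67 to 9.61 (median 8.27) in WT and from 8.50 to 10.34 (median 9.78) with vehicle at probe set 1434292_at. It differed by 1.07 (SE 0.37, 2.11-fold, adjusted p = 0.0938), with 5 of 7 vehicle mice above all WT mice. This was the least stable call: it was lost in 20 of the 35 fits without 1 mouse, at 0.92 to 1.12, while without the 3 arrays it gave 1.28 (adjusted p = 0.0281). It was also lost under Tukey's comparison, without the filter, with the intensity filter alone and when only the groups compared were fitted (adjusted p = 0.110, 0.106 and 0.115 for these filters and this fit). Its other probe set gave 0.57 and was not called. Snhg1, Norad, Rian, Miat and Neat1 had no call. Snhg1 1439399_a_at gave 0.89 (95% interval 0.12 to 1.66, adjusted p = 0.180), with 6 of 7 vehicle mice above all WT mice and mouse 5 below them. Norad 1428286_at gave -0.27 (-0.54 to 0.01), Rian 1452899_at -0.68 with 4 vehicle mice below all WT mice, Miat 1455325_at 0.12 (-0.42 to 0.66) and Neat1 1428083_at 0.17 (-0.57 to 0.91).

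The same comparison held a change in glial and neuronal markers. Of 10 filtered microglial markers 5 were called higher with vehicle: Csf1r, Tyrobp, C1qb, C1qc and Ctss. So was 1 of 8 astrocyte markers, Gfap (list median 0.05). Of 12 motoneuron markers 2 were called lower, Nefm and Rbfox3, and of 8 oligodendrocyte markers 1, Olig1. None of 5 interneuron markers was called (2 at an unadjusted p under 0.05), with a median of 0.65 and list means of 6.48 (6.30 to 6.62) in WT and 7.03 (5.73 to 7.62) with vehicle. The part of these cells in the higher long non-coding RNAs was not tested. With the 18S control as a covariate 5 of the 6 calls stayed, all but Gas5 1449410_a_at (0.77, adjusted p = 0.107). When 1 median per gene was tested, none of the 10 RNAs was called between vehicle and WT, and the medians were 0.82 for Snhg11 (adjusted p = 0.173), 0.76 for Gas5 (0.147), 0.42 for Malat1 (0.463), 0.09 for Meg3 (0.917) and -0.23 for Kcnq1ot1 (0.783). The vehicle calls thus rest on single probe sets of each gene, or a pair for Gas5. The Kcnq1ot1 median set unlike probe sets against each other, on average 1457781_at in WT (4.65) and 1458161_at with vehicle (3.90).

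**Figure D3:**
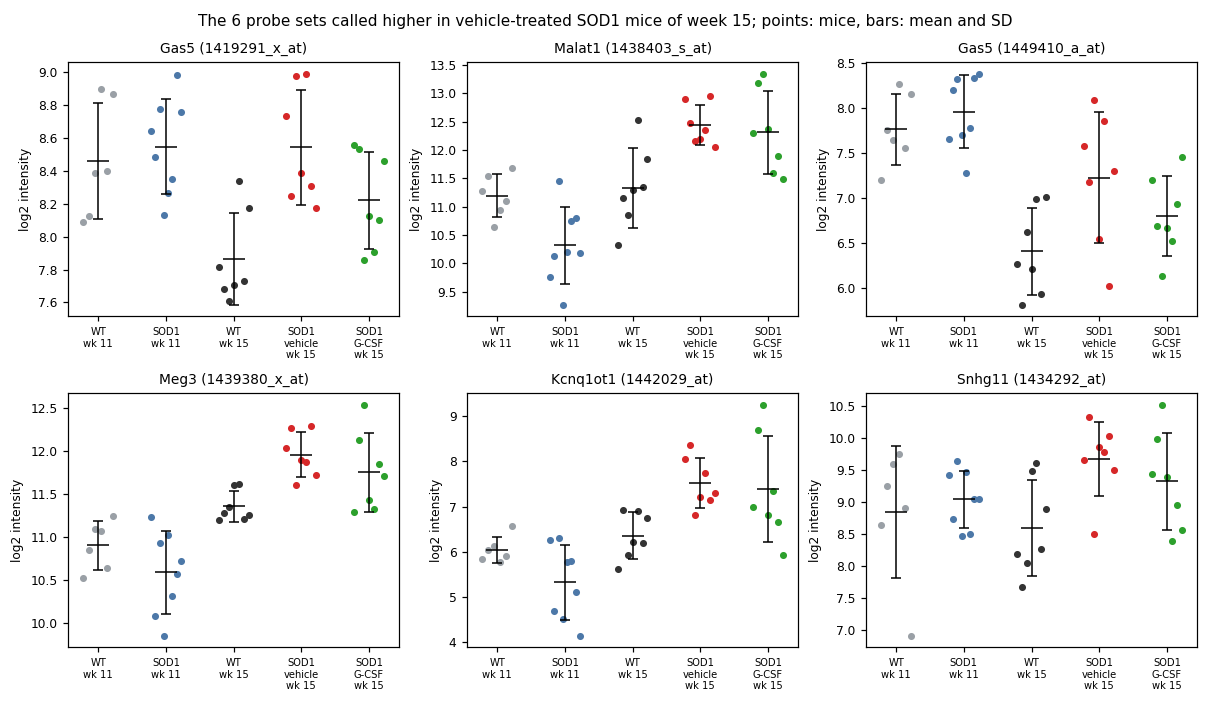
Log2 intensity of the 6 probe sets called higher in vehicle-treated SOD1G93A mice than in WT mice of week 15, shown for all 5 groups; points are mice and bars give mean and SD. For Meg3 and Kcnq1ot1, 6 of 7 vehicle mice lie above all WT mice of week 15, and the G-CSF means lie between the WT and vehicle means in every panel. The panels were chosen for a high vehicle mean against these WT mice, so that position cannot show a treatment effect. None of the 6 was called between G-CSF and vehicle.

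G-CSF treatment was set against vehicle to see whether it moved these RNAs back. None of the 44 probe sets was called by limma, as was so for nearly all probe sets of the array (0.0383% called, 0.0128% higher and 0.0255% lower). Tukey's comparison also called 0 of the 44, beside 353 of all 31352 filtered probe sets. At an unadjusted p under 0.05 there was 1 (2.27%, beside 8.3% of all filtered probe sets), Norad 1432646_a_at at -1.35 (adjusted p = 0.544), where 4 G-CSF mice were above the array median and 3 below. The median difference of the 44 was -0.14, with 14 above 0 and 30 below, among the latter 8 of the 11 for Meg3 and 5 of the 7 for Malat1. For the 6 probe sets that were higher with vehicle, the differences of G-CSF from vehicle had 95% intervals that all included 0.

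Values of the G-CSF mice at those probe sets overlapped both the WT and the vehicle values. Gas5 1449410_a_at ranged from 6.13 to 7.46 (median 6.69). Gas5 1419291_x_at ranged from 7.86 to 8.56 (median 8.13), Malat1 1438403_s_at from 11.50 to 13.35 (median 12.30) and Meg3 1439380_x_at from 11.29 to 12.53 (median 11.71). Kcnq1ot1 1442029_at ranged from 5.93 to 9.26 (median 7.00), a wider spread than in any other group, and Snhg11 1434292_at from 8.40 to 10.53 (median 9.40). G-CSF mouse 3 was the highest of its group for Malat1, Meg3, Kcnq1ot1 and Snhg11. Set against WT mice, G-CSF mice had 0 probe sets called higher (0.348% of all filtered probe sets) and 1 called lower (0.778%; 1.13% either way), and 5 (11.4%) had an unadjusted p under 0.05, beside 12.7% of all. The lower one was Meg3 1436713_s_at, a dim probe set that ranged from 2.97 to 5.31 (median 4.10) in WT and from 2.36 to 3.90 (median 2.60) with G-CSF. It fell by 1.33 (SE 0.36, adjusted p = 0.0788), with 5 of 7 G-CSF mice below all WT mice. Over all 11 Meg3 probe sets 7 lay above 0 and 4 below in this comparison. The call was lost with the 18S control as a covariate (-1.27, adjusted p = 0.127) and in 11 fits without 1 mouse (all G-CSF mice but 1 and 5, and all WT mice but 2), at -1.39 to -1.14. The vehicle and G-CSF groups share the WT controls, so that the absence of a call with G-CSF is no test of a treatment effect.

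**Figure D4:**
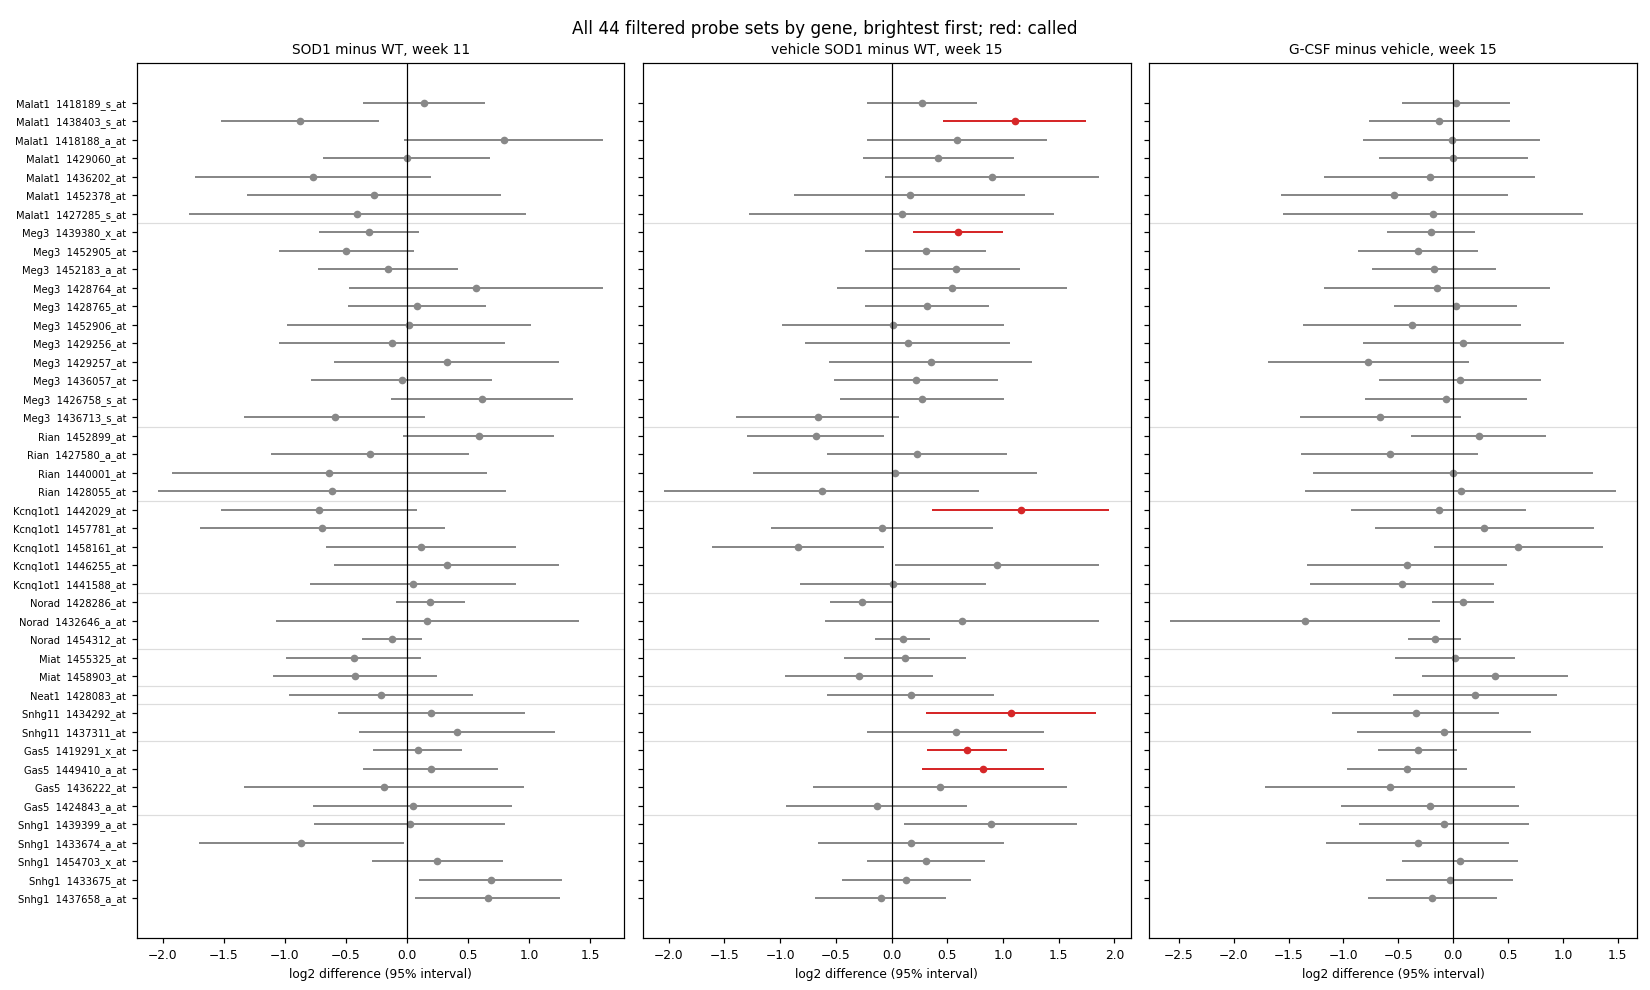
Log2 difference with its 95% interval (horizontal axis) of all 44 filtered probe sets, by gene and brightest first (vertical axis), for SOD1G93A minus WT at week 11, vehicle minus WT at week 15 and G-CSF minus vehicle; red marks called probe sets. The 6 called ones are all in the middle panel and above 0.

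Whether the mutation acted differently at the 2 ages was tested as the SOD1G93A minus WT difference at week 15, with vehicle, less that at week 11. Of the 44 probe sets 3 were called higher and 0 lower, beside 2.93% of all filtered probe sets (0.778% higher and 2.15% lower), 8 (18.2%) had an unadjusted p under 0.05, beside 18.1% of all, and the members' median was 0.33. Malat1 1438403_s_at gave 1.98 (SE 0.44, adjusted p = 0.0384): SOD1G93A mice were at 10.32 ± 0.68 against 11.20 ± 0.38 in WT at week 11, and at 12.44 ± 0.36 against 11.34 ± 0.71 at week 15. Kcnq1ot1 1442029_at gave 1.88 (SE 0.55, adjusted p = 0.0830) and Meg3 1439380_x_at 0.91 (SE 0.28, adjusted p = 0.0941). In all 3 the SOD1G93A mean was below WT at week 11 and above it at week 15. Malat1 was called in all 35 fits without 1 mouse, Kcnq1ot1 in 23 and Meg3 in 15, with values of 1.72 to 1.95 and 0.80 to 0.97 where they were lost. Without the 3 arrays Malat1 alone was called (1.96, adjusted p = 0.0784), and Kcnq1ot1 and Meg3 gave 1.88 and 0.93 (adjusted p = 0.173 and 0.172). The Meg3 call was also lost with another quantile normalization (adjusted p = 0.123) and with the 18S covariate (adjusted p = 0.136). Week, cohort, 18S level and, in SOD1G93A mice, the pump cannot be told apart in this comparison.

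Members were also compared between mice of a group. After the group means were removed, 8 of the 45 pairs of brightest probe sets correlated over the 35 arrays with a permutation p adjusted over the 45 pairs under 0.05, and all 8 were above 0. How often other pairs of filtered probe sets would pass was not counted, so the 8 are given as a description. Malat1 and Snhg11 had r = 0.75 (rho = 0.69, adjusted permutation p = 0.000225, 0.65 without the 2 arrays farthest on the Malat1 axis, 0.64 without the 3 arrays that stood apart). Meg3 and Miat had r = 0.71 (rho = 0.71, the same adjusted permutation p, 0.60 and 0.74). Both pairs reached the smallest raw p that 100000 permutations can give. Kcnq1ot1 went with Meg3 (r = 0.62, rho = 0.54) and with Malat1 (0.45, rho = 0.45), and Snhg11 with Miat (0.52, rho = 0.64) and Meg3 (0.51, rho = 0.59). Rian was tied to Norad at r = 0.59 and to Snhg11 at 0.50, but these fell to 0.27 and 0.18 without the 3 arrays and thus rest on them. Meg3 and Rian, from 1 domain, had r = 0.06, and Gas5 and Snhg1, both host genes, also 0.06. Neat1, Gas5 and Snhg1 passed with no other member. With the 18S control, Snhg1 was the sole member of 10 to pass, at r = -0.53 (rho = -0.58, adjusted permutation p = 0.0059, -0.60 without the 3 arrays).

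**Figure D5:**
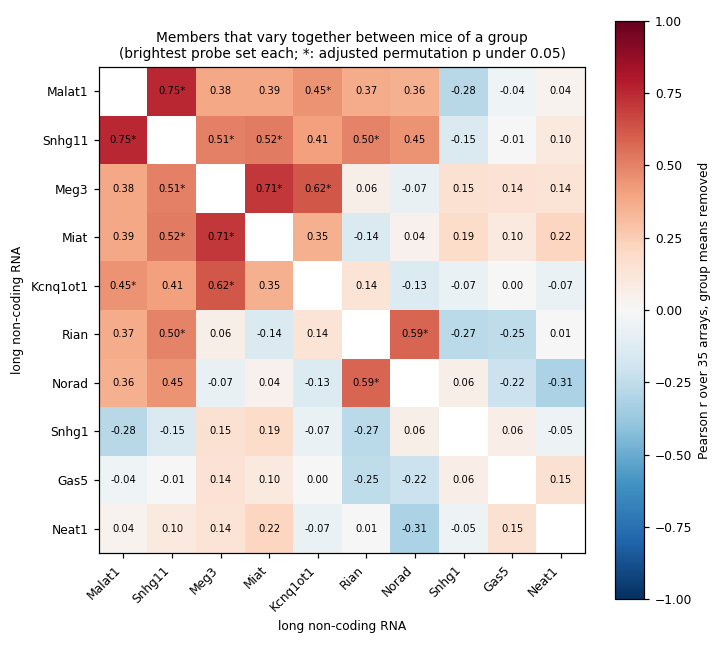
Pearson r between the brightest probe sets of the 10 RNAs over 35 arrays after group means were removed (colour scale from -1 to 1); stars mark the 8 pairs with an adjusted permutation p under 0.05. Malat1, Snhg11, Meg3, Miat and Kcnq1ot1 form the block of positive values at the upper left, and Snhg1, Gas5 and Neat1 have no star. How often other pairs of filtered probe sets would pass was not counted.

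Probe sets of 1 gene did not always move together. No share over other pairs of filtered probe sets was counted here either. Over 113 pairs within genes, 78 correlated with an adjusted permutation p under 0.05, all above 0. For Meg3 these were 53 of 55 pairs (median r 0.69), for Malat1 15 of 21 (0.44) and for Snhg1 6 of 10 (0.46). The single pairs of Snhg11 and Miat had r = 0.68 and 0.45. For Gas5 1 of 6 pairs passed, that of 1419291_x_at and 1449410_a_at (r = 0.75), for Rian 1 of 6, and for Kcnq1ot1 and Norad 0 of 10 and 0 of 3. The parts of each transcript that the probe sets read were not analysed here.

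The genes whose variation between mice of a group was most like that of a member, as Pearson r over the 35 arrays with group means removed, are given as a description chosen from all filtered genes. For Malat1 it was Srrm2, which encodes a scaffold protein of nuclear speckles (r = 0.80, and 0.85 without the 3 arrays), then Clasp1 (0.77, and 0.66) and Mblac2 (0.77, and 0.56). For Meg3 it was Capn15 (0.78), A330023F24Rik (0.73) and Shkbp1 (0.72), and for Miat Arhgef1 (0.75), Meg3 itself (0.71) and Aak1 (0.68). Kcnq1ot1 was most like Snrnp48, a protein of the minor spliceosome (0.73), Csmd2 (0.72) and Trim41 (0.67). Rian was most like Slc12a5, the neuronal chloride exporter (0.82), Snap25, a synaptic membrane-fusion protein (0.77), and Ppp3r1 (0.75), but these fell to 0.65, 0.55 and 0.48 without the 3 arrays. Norad was most like Cab39 (0.81), Fez1 (0.80) and Bcl2l2 (0.80), which fell to 0.53, 0.64 and 0.50. Snhg11 had Atp11b (0.81), Efr3b (0.80) and Zcchc7 (0.79), Snhg1 had Rasgrf2 (0.73), Lcor (0.71) and Smarcd2 (0.70), Neat1 had P4ha1 (0.65), Adamts1 (0.63) and Tomm40 (0.60), and Gas5 had Dlgap3 (0.63), 4933407L21Rik (0.61) and Gm12159 (0.60). Without the 3 arrays these fell to 0.68, 0.65 and 0.65 for Snhg11, to 0.68, 0.67 and 0.54 for Snhg1, and to 0.48, 0.48 and 0.49 for Gas5. Those of Meg3, Miat, Kcnq1ot1 and Neat1 stayed at 0.60 or above.

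Genes that work with these RNAs were counted in the same fit, where with vehicle 5.91% of all filtered probe sets were called, 1.72% higher and 4.2% lower. Each list had at most 2 called genes with vehicle, and no list was tested against that background. Of 19 filtered genes for paraspeckle proteins, 1 was called higher with vehicle than in WT, Hnrnpa1, an RNA-binding protein of splicing, at 1.39 (SE 0.28, adjusted p = 0.00357), and their median was -0.23. The difference between weeks called Hnrnpa1 higher (1.83), and Hnrnpk (-0.76) and Fam98a (-0.98) lower. Smarca4, a chromatin remodeler, was higher in SOD1G93A mice of week 11 (0.81, adjusted p = 0.0251). The list headed nuclear speckle proteins held 16 genes, and whether each protein sits in speckles was not checked. Of these, Srrm1 was higher with vehicle (0.82, adjusted p = 0.0240) and Hnrnpc lower (-1.30, adjusted p = 0.0861). Hnrnpc was also lower in the difference between weeks (-2.10). Of 11 protein partners of Norad, Miat and Gas5, Nr3c1, the glucocorticoid receptor, which Gas5 RNA can bind, was lower with vehicle (-0.96, SE 0.30, adjusted p = 0.0664) while Gas5 was higher, and the other 10 were not called. Of 11 factors of nonsense-mediated decay, the pathway that destroys translated Gas5 RNA, Upf2 (0.59, adjusted p = 0.0865) and Pnrc2 (0.78, adjusted p = 0.0391) were higher with vehicle.

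Neighbours in the imprinted domains were few on the array. Besides Meg3 and Rian, 2 genes of the Dlk1-Dio3 domain passed the filter: Dlk1, made from the paternal copy, was higher with vehicle (1.40, SE 0.47, adjusted p = 0.0846), and Mirg, a maternal RNA that hosts microRNAs, was higher in the difference between weeks (1.15, adjusted p = 0.0654). Of 8 filtered genes near Kcnq1, 1 was lower with vehicle, Nap1l4 (-0.64, SE 0.17, adjusted p = 0.0257), a histone chaperone, and also in the difference between weeks (-0.86). Of 20 other long non-coding RNAs that passed, 0 were called between vehicle and WT by limma (5 at an unadjusted p under 0.05), and their median was 0.19. Of 13 other snoRNA host genes, Snhg16 was higher with vehicle (0.99, adjusted p = 0.0703) and Snhg14 lower (-0.76, adjusted p = 0.0728). Between the WT weeks 1 of these 13 was called, Zfas1, whose snoRNA-bearing RNA is of the same kind as Gas5. It was lower at week 15 (-0.75, SE 0.18, adjusted p = 0.0105), as probe sets of Gas5 and Snhg1 were. The median of the 13 was -0.07 and 2 had an unadjusted p under 0.05, while 2.26% of all filtered probe sets were called lower. Of 12 targets of p53, Gadd45a (2.34, adjusted p = 0.00343) and Phlda3 (0.72, adjusted p = 0.0372) were higher in SOD1G93A mice at week 11, and Cdkn1a (1.49, adjusted p = 0.0158) and Sesn2 (0.79, adjusted p = 0.0717) with vehicle at week 15.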

How the data were processed

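RNA of laser-dissected motoneurons went through 2 rounds of linear amplification (oligo-dT, then random priming) and was hybridised to Affymetrix mouse genome arrays, 1 per mouse (n = 35). The deposited values are log2 intensities; the submitters' processing notes name Affymetrix Expression Console and GCRMA, whose versions are not given in the sources used here. GCRMA pulls dim probe sets to a common low level, so a difference that starts there is uncertain. As Malat1 lacks an ordinary poly(A) tail, oligo-dT priming could affect its level.

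Groups came from the labels. As in the study's methods, probe sets had to exceed the 20th centile of intensity (2.40) on at least 4 arrays and have an SD at or above the 30th centile (0.241), which left 31352 of 45101. One mean per group was fitted to them with limma 3.58.1 (R 4.3.3) by lmFit and eBayes, and 6 comparisons were drawn. A call needed p under 0.05, Benjamini-Hochberg adjusted p under 0.1 within the comparison and a 1.5-fold difference. The fit was tested on simulated data. Symbols came from the platform annotation. Each member was described at its brightest probe set and at every called probe set, and up to 4 called genes per list and comparison were named. Correlations used 100000 permutations within groups, two-sided, with Benjamini-Hochberg adjustment per family, and leaving the 3 arrays apart out of them was added after seeing the data, as was the lower bound for a dim Norad probe set. The members and gene lists were chosen with earlier results of these data known. Sequences are from RefSeq (GRCm38.p6). No 2 arrays held identical values (highest r 0.980). The number of arrays limits the precision.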

Additional observations from a re-analysis of the deposited data

Results flagged for a closer look

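Among 95 groups (19 described probe sets in 5 groups), 8 held a mouse that stood far from its group on log2 intensity, where chance gives about 1 in 20, or 4.75. Kcnq1ot1 1458161_at was 6.88 in G-CSF mouse 2 against 4.86 in the next mouse, Malat1 1418188_a_at was 11.52 in WT mouse 5 of week 15 against 10.67, and Meg3 1436713_s_at was 4.24 in SOD1G93A mouse 3 of week 11 against 3.33. On the low side, Miat 1455325_at was 8.45 in SOD1G93A mouse 4 of week 11 against 9.25, and Neat1 1428083_at was 4.02 in SOD1G93A mouse 1 of week 11 against 5.06. The other three lay on the arrays that stood apart on principal components: Norad 1428286_at at 10.75 in WT mouse 6 of week 11 against 11.40, Rian 1452899_at at 8.75 in vehicle mouse 3 against 10.24, and Snhg1 1439399_a_at at 5.80 in vehicle mouse 5 against 7.51.

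The SOD1G93A minus WT difference was larger at week 15, with vehicle, than at week 11 for Malat1 1438403_s_at (1.98), Kcnq1ot1 1442029_at (1.88) and Meg3 1439380_x_at (0.91), by the limma test of the difference itself.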

How the results depend on the processing

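Of 44 member probe sets, 0, 6, 0, 1, 3 and 9 were called in the comparisons SOD1G93A with WT at week 11, vehicle with WT, G-CSF with vehicle, G-CSF with WT, the difference between weeks, and WT week 15 with week 11. Tukey's comparison, named in the methods, called 2 for G-CSF with WT, beside 774 of all 31352 filtered probe sets, and could not give the difference between weeks. Array weights gave 3 for vehicle with WT and 15 for the WT weeks, where 4.98% and 12.2% of all filtered probe sets were called. The 18S covariate gave 2 at week 11 and 0 for the WT weeks, where 362 and 36 of all 31352 filtered probe sets were called. For the WT weeks, from which its level cannot be separated, Malat1 1418188_a_at was at -0.25, Malat1 1452378_at at -1.26, Meg3 1428764_at at -0.77 and Snhg1 1433674_a_at at 0.18 on the log2 scale (limma adjusted p of 0.889 to 0.988). An adjusted p under 0.05 left 2, 0 and 1 for vehicle with WT, G-CSF with WT and the difference between weeks. Without the 3 arrays apart, the last was 1. One median per gene left 0 genes in those 3 and 2 in the WT weeks, Kcnq1ot1 and Norad, whose medians set unlike probe sets against each other. The causes were not tested. Leaving out 1 mouse gave 0 to 0, 2 to 7, 0 to 0, 0 to 1, 1 to 4 and 7 to 10 in the order above, with 2 for vehicle with WT without vehicle mouse 1, WT mouse 1 or WT mouse 6. Replicate numbers did not pair the mice (66 pairs of arrays with 1 number, r -0.21 to 0.14). With the replicate number as a block, G-CSF with WT gave 0, vehicle with WT 4, the difference between weeks 2 and the WT weeks 9, and the calls lost were Meg3 1439380_x_at and Snhg11 1434292_at with vehicle, Meg3 1436713_s_at with G-CSF, and Kcnq1ot1 1442029_at and Meg3 1439380_x_at in the difference between weeks. The other settings (another quantile normalization, no filter, the intensity filter alone, a floor, a trended robust prior, no minimum fold, the groups of the comparison alone) kept each count within 1.5 times. GCRMA's low floor limits dim probe sets, Norad 1432646_a_at and Meg3 1436713_s_at above all.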
